A study of Mus musculus with 8 samples.

Results

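Integrins are cell surface adhesion receptors made of an α and a β chain. The transcripts examined here are the 9 leukocyte integrin chains Itgal, Itgb2, Itga4, Itgb1, Itgb7, Itgae, Itga5, Itga6 and Itgb3. They were taken by gene symbol from a table of 21524 genes measured in regulatory T cells (Tregs), CD4 T cells that depend on the factor Foxp3 and hold other immune cells in check. All 9 were present. RNA came from Tregs sorted from mouse spleen by flow cytometry, in 4 libraries with the treatment label IL-2 (replicates 41 to 44) and 4 labelled Ctrl (replicates 45 to 48). The study as a whole treated BALB/c-to-C57BL/6 heart or kidney recipients with a modified IL-2 of longer half-life and a dose of CTLA-4 Ig, which blocks T cell co-stimulation. The labels do not say whether the IL-2 libraries came from animals given that modified IL-2, whether either group received CTLA-4 Ig or carried a graft, what the Ctrl animals received, how old they were, or whether each library was a separate animal. The p-values therefore measure the spread between these libraries.

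An integrin binds its ligand only as an αβ pair, and several of the chains examined here have more than 1 possible partner. The transcript of a shared chain and that of its partners therefore need not move together. The αLβ2 integrin LFA-1 binds ICAM proteins and holds T cells to antigen-presenting cells and vessel walls. The α4 chain pairs either with β1, as VLA-4, which binds VCAM-1 and fibronectin, or with β7, which binds MAdCAM-1 on vessels of the gut. The β7 chain also pairs with αE (CD103), the receptor for E-cadherin on epithelial cells. The α5 and α6 chains pair with β1 as receptors for fibronectin and laminin, and β3 pairs with αv, or with αIIb on platelets.

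The sort and the libraries were checked before the integrins. Foxp3 had between 1123 and 2235 normalised reads in every library. Of the 7 Treg and CD4 T cell markers measured, Il2ra, the high-affinity IL-2 receptor chain, was 2.61-fold higher with IL-2, at 18107 ± 1601 against 6935 ± 781 in Ctrl (limma adjusted p = 3.11e-07). Cd4 was 1.64-fold lower, at 2523 ± 354 against 4136 ± 300 (adjusted p = 1.49e-04), and neither overlapped between groups. Foxp3, Ikzf2, Ctla4, Cd3e and Cd3g did not pass (adjusted p from 0.115 to 0.950). The libraries held an estimated 4953546 to 6399417 reads each. Some markers of other cells moved with the treatment, and Ctss and Pecam1 reached levels like that of Foxp3. The 9 B cell markers summed to 110 to 212 normalised reads in IL-2 libraries and 404 to 506 in Ctrl libraries. Cd74 averaged 88.5 ± 40.1 with IL-2 and 396 ± 35.4 in Ctrl. Of the B cell receptor components, Cd79a stayed at or under 3.05 and Cd79b averaged 60.1 ± 31.1 with IL-2 and 42.0 ± 14.1 in Ctrl. The 14 monocyte, macrophage and dendritic cell markers summed to 879 to 1196 in IL-2 libraries and 1786 to 2058 in Ctrl libraries, most of it Ctss, while Cd14, Clec9a and Siglech were at 0 in all 8. The 9 neutrophil markers summed to 127 to 180 in IL-2 libraries and at most 3.59 in Ctrl libraries, almost all of it Ltf, with S100a9, Ly6g, Elane, Retnlg and Camp at 0 in all 8. The 9 stromal and endothelial markers summed to 1011 to 1188 in IL-2 libraries and 1301 to 1551 in Ctrl libraries, most of it Pecam1, with Cdh5 and Pdgfrb at 0. The part of these markers in the results was not tested. Transcripts of the Y-linked gene Ddx3y were present in 2 IL-2 and 3 Ctrl libraries. In such bulk samples, fewer cells of a type and less RNA per cell cannot be told apart.

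The comparison of IL-2 with Ctrl libraries asked whether the treated Tregs carried different integrin transcripts. The α chains of LFA-1 and of the α4 integrins and the β1 chain fell. Mean normalised reads of Itgal fell by 45.3%, those of Itgb1 were 1.73-fold and those of Itga4 1.41-fold lower (n = 4 libraries a group). The β7 chain went the other way, 39.3% higher with IL-2. Itga6 passed only narrowly, as higher, and Itgb2, Itgae and Itgb3 did not pass. Of the 8 members tested, 2 were called higher and 3 lower (limma with Benjamini-Hochberg adjustment over 5261 genes, threshold 0.05). Of all tested genes, 31.4% were called, 16.8% as higher and 14.6% as lower. Each of the 8 lay above the filter on low values in all 8 libraries, and Itga5, the ninth, lay below it. The median difference was -0.09 over the 8 members and -0.01 over all tested genes, on the deposited log2 scale.

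**Figure D1:**
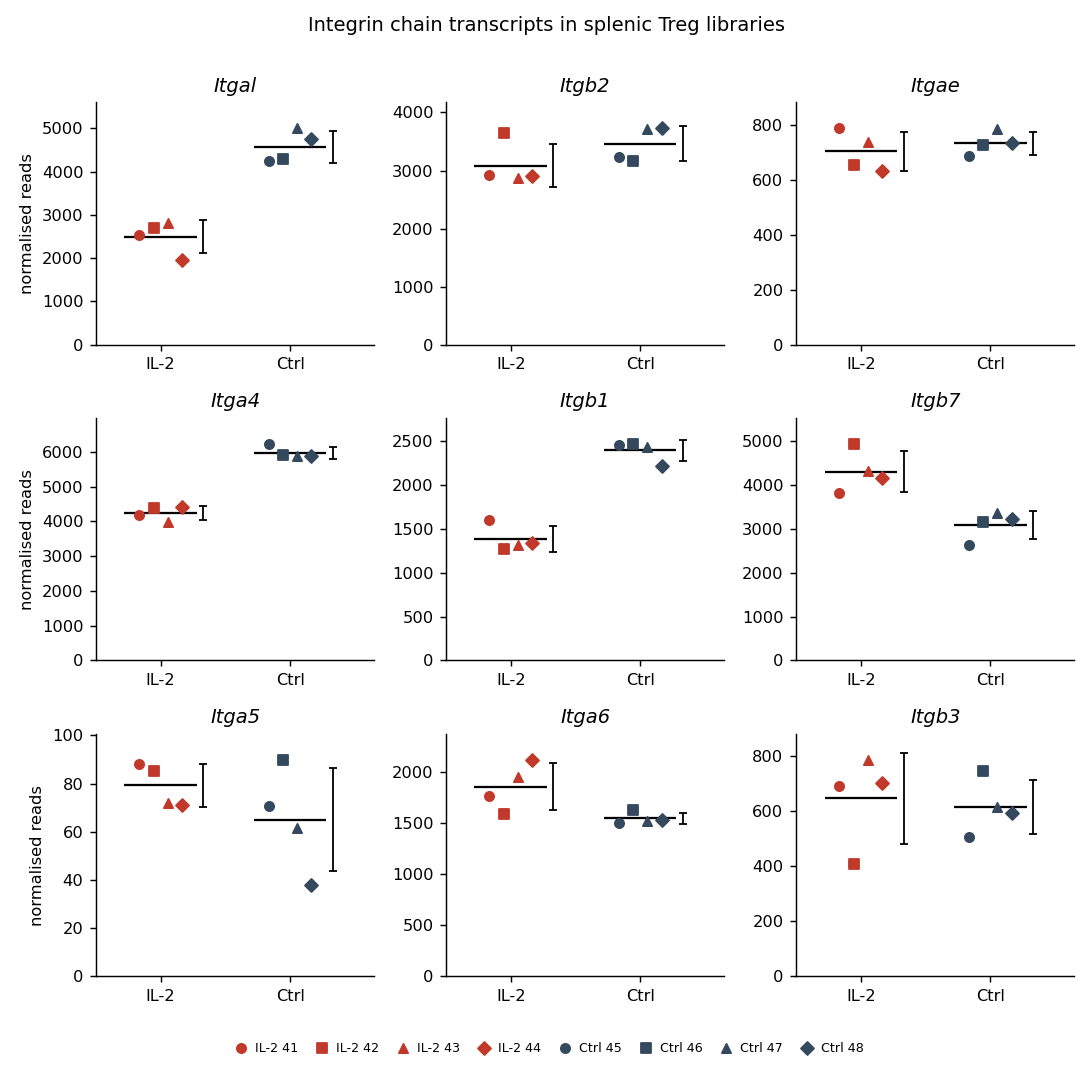
Normalised reads (y axis, linear, from 0) of the 9 integrin chains in each of 4 IL-2 and 4 Ctrl libraries, with a symbol for each library, a line at the group mean and a bar of 1 SD on each side. Itgal, Itga4 and Itgb1 lie lower in all IL-2 libraries than in any Ctrl library, Itgb7 lies higher in all of them, and the groups overlap for the other chains.

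Itgal encodes αL (CD11a), the chain that gives LFA-1 its ligand binding. Its normalised read counts were 2536, 2694, 2808 and 1959 in IL-2 libraries 41 to 44, against 4253, 4288, 5000 and 4751 in Ctrl libraries 45 to 48. No IL-2 library reached the lowest Ctrl library, and library 44 was the lowest of the 8. The mean was 2499 ± 377 with IL-2 and 4573 ± 364 in Ctrl (SD, n = 4 each), 1.83-fold lower with IL-2 (limma difference -0.72 ± 0.08 SE on the deposited scale, adjusted p = 5.46e-05). Itgb2 encodes β2 (CD18), the partner of αL and of the myeloid α chains. It had 2915, 3649, 2871 and 2909 normalised reads in IL-2 libraries, against 3238, 3162, 3707 and 3727 in Ctrl libraries. Library 42 stood within the Ctrl range and the other IL-2 libraries below it, so the groups overlapped. The limma difference of Itgb2 was -0.14 with a 95% interval of -0.30 to 0.03 (adjusted p = 0.188), and without IL-2 library 42 it was -0.20 and passed (adjusted p = 0.0346).

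Other β2 partners were scarce. Itgam, the αM chain of macrophages and neutrophils, averaged 63.4 ± 35.9 normalised reads with IL-2 and 64.4 ± 25.5 in Ctrl. Itgax, the αX chain of dendritic cells, did not exceed 5.70 in any library, and Itgad, the αD chain, did not exceed 23.0. The ratio of Itgal to Itgb2, each as normalised reads per kb of its longest annotated coding transcript, was 0.464 ± 0.0774 with IL-2 and 0.753 ± 0.0212 in Ctrl. All 4 IL-2 ratios lay below all 4 Ctrl ratios. Itgal was already called lower, so this ratio is a description and not a separate result. The myeloid marker sum given above also fell with IL-2, and its part in the β2 values was not tested.

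Itga4 encodes α4 (CD49d), the chain shared by VLA-4 and the gut-homing α4β7. Its counts were 4190, 4374, 3971 and 4412 in IL-2 libraries, against 6224, 5915, 5873 and 5881 in Ctrl libraries. The groups were well apart and each was tight. The mean was 4237 ± 202 with IL-2 and 5973 ± 168 in Ctrl, 1.41-fold lower (limma difference -0.43 ± 0.05 SE, adjusted p = 6.16e-05). Itgb1 encodes β1 (CD29), the most widely shared β chain. It had 1600, 1270, 1317 and 1334 normalised reads in IL-2 libraries, against 2458, 2465, 2435 and 2218 in Ctrl libraries. Every IL-2 library lay below every Ctrl library, with library 41 the highest of the IL-2 group. Itgb1 was 1.73-fold lower (limma difference -0.58 ± 0.06 SE, adjusted p = 2.42e-05), the smallest adjusted p of the 9 chains.

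Itgb7 encodes β7, the other partner of α4. Its counts were 3813, 4935, 4315 and 4169 in IL-2 libraries, against 2634, 3156, 3361 and 3223 in Ctrl libraries. The lowest IL-2 library, 41, lay above the highest Ctrl library, 47. The mean was 4308 ± 468 with IL-2 and 3093 ± 318 in Ctrl, 1.39-fold higher (limma difference 0.40 ± 0.08 SE, adjusted p = 0.00212). Of the 8 tested members, 4 had groups that did not overlap, Itgal, Itga4, Itgb1 and Itgb7, where 31.5% of all tested genes had such groups.

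Itga4 and Itgb1 fell while Itgb7 rose, and the stretches around the transcription starts of these 3 genes are shown for that reason. They are RefSeq sequences of build GRCm38.p6, from 250 bases before to 50 after the start, read on the gene's strand. Itga4 lies at chr2:79255176-79255475 on the plus strand, Itgb1 at chr8:128685404-128685703 on the plus strand and Itgb7 at chr15:102231886-102232185 on the minus strand. Capitals mark the letters TGTGGT or their reverse complement, a core bound by RUNX factors.

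Itga4: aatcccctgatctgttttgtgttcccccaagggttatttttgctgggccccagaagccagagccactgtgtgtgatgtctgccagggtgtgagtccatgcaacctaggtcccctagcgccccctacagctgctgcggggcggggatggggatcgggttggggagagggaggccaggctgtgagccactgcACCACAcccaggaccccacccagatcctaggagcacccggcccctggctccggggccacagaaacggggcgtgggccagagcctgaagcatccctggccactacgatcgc

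Itgb1: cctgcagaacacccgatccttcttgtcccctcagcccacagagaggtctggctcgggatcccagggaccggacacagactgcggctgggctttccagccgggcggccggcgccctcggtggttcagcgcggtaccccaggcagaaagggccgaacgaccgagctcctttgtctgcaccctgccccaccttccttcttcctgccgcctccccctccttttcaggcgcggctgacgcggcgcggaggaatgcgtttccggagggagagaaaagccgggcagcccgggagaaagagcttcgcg

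Itgb7: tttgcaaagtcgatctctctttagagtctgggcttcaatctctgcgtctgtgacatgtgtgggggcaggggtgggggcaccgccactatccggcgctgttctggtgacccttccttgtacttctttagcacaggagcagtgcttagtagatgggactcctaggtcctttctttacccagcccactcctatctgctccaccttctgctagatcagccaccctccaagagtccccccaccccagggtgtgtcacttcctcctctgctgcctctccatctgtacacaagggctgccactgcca

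The Itgb1 stretch had 67.3% G and C with 27 CG pairs, the Itga4 stretch 64.3% with 10 and the Itgb7 stretch 56.3% with 5. The RUNX letters occurred once, in Itga4, beginning 60 bases before the start, and in 16.8% of 32851 promoter stretches of this length. The palindromic STAT letters TTCNNNGAA occurred in none of the 3 and in 8.3% of all. A match or its lack describes only these letters in these windows. Sequences were at hand for 4 of the 9 members.

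Within each library the balance of the α4 partners was set out as a description, without a test, because the directions of Itgb1 and Itgb7 were already known. The ratio of Itgb7 to Itgb1 in reads per kb was 3.39, 5.53, 4.66 and 4.44 in IL-2 libraries, against 1.52, 1.82, 1.96 and 2.07 in Ctrl libraries. It was 2.44-fold higher on average with IL-2, and the groups did not overlap. The ratio of Itga4 to Itgb7 was 0.272 ± 0.0284 with IL-2 and 0.536 ± 0.0766 in Ctrl, 1.97-fold lower, also without overlap. The ratio of Itga4 to Itgb1 was 1.21 ± 0.143 with IL-2 and 0.976 ± 0.0463 in Ctrl, with overlapping groups. The size of each ratio depends on the length used, so it does not show which chain was in excess. Per kb of coding sequence, Itga4 averaged 1368 with IL-2 and 1929 in Ctrl, Itgb7 1782 and 1279, and Itgb1 577 and 1000. The fold between groups does not depend on the length.

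**Figure D2:**
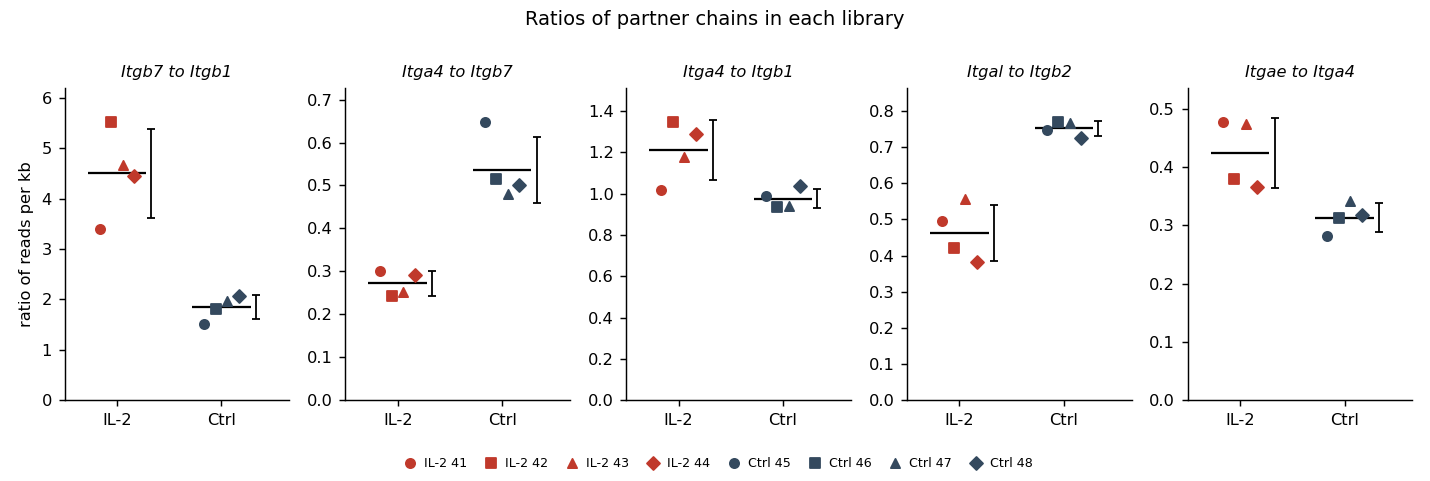
Ratios of normalised reads per kb of transcript (y axis, linear, from 0) for pairs of chains in each of 4 IL-2 and 4 Ctrl libraries, with the group mean and 1 SD on each side. Itgb7 to Itgb1 averages 4.50 with IL-2 and 1.84 in Ctrl, and of the 5 ratios the groups overlap only for Itga4 to Itgb1. The size of a ratio depends on the transcript length used, here the longest.

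Itgae, the αE chain that pairs with β7 alone, did not pass, while Itgb7 rose. It had 789, 655, 739 and 635 normalised reads in IL-2 libraries, against 687, 728, 788 and 734 in Ctrl libraries. The groups overlapped throughout. The limma difference was -0.03 with a 95% interval of -0.15 to 0.08 (adjusted p = 0.674). The ratio of Itgae to Itga4 in reads per kb was 0.424 ± 0.0596 with IL-2 and 0.313 ± 0.0248 in Ctrl, with no overlap. Itga4 was already called lower, so the higher ratio is not a separate result for Itgae. CD8 T cells can carry much αE, and the 7 CD8 T cell and NK cell markers summed to 58.7 to 128 normalised reads in IL-2 libraries and 125 to 243 in Ctrl libraries. Their part in the Itgae values was not tested.

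Itga6 encodes α6 (CD49f), a laminin receptor chain that pairs with β1 or β4. Its counts were 1761, 1581, 1945 and 2113 in IL-2 libraries, against 1498, 1626, 1514 and 1530 in Ctrl libraries. IL-2 library 42 lay below Ctrl library 46, and the other IL-2 libraries lay above all Ctrl libraries. Itga6 was 1.20-fold higher with IL-2 (limma difference 0.18 ± 0.07 SE, adjusted p = 0.0495), but the call was lost under 13 of 18 alternatives, among them leaving out any library except IL-2 library 42 (adjusted p up to 0.122). On log2 normalised reads its adjusted p was 0.0692. The other α6 partner, Itgb4, had a read in 1 library only, IL-2 library 41.

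Itga5, the fibronectin receptor chain α5, was the least abundant member. It had 88.3, 85.4, 71.9 and 71.2 normalised reads in IL-2 libraries, against 70.8, 89.8, 61.7 and 38.0 in Ctrl libraries. Ctrl library 48 was low and the groups overlapped. In the fit on log2 normalised reads plus 5, which took in 10777 genes, the difference was 0.32 with a 95% interval of -0.29 to 0.92 (limma adjusted p = 0.481, two-sided exact permutation p = 0.314). In that fit, 1 of the 9 members was called higher and 3 lower, where 19.9% of all genes were called, 10.9% as higher and 9.07% as lower.

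Itgb3 encodes β3, a chain of the vitronectin receptor αvβ3 and of the platelet fibrinogen receptor. Its counts were 694, 407, 787 and 703 in IL-2 libraries, against 508, 745, 617 and 594 in Ctrl libraries. Library 42 was the lowest and library 43 the highest of all 8, so the IL-2 group spanned the Ctrl group. The limma difference was 0.03 with a 95% interval of -0.18 to 0.24 (adjusted p = 0.854), and its sign turned without IL-2 library 43 (-0.03) or Ctrl library 45 (-0.02). The 10 platelet and megakaryocyte markers summed to at most 37.0 normalised reads in IL-2 libraries and 86.6 in Ctrl libraries, and Itga2b, the platelet partner of β3, reached at most 28.2. The chemokine gene Pf4 of platelets was at 0 in the 4 IL-2 libraries and at most 5.71 in Ctrl libraries.

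Ordered by normalised reads per kb, the level of Itgb7 was first in IL-2 libraries at 1606 ± 174, followed by Itgb2 at 1039 ± 126, with no overlap between them. Itgal (479 ± 72.2), Itga4 (434 ± 20.7), Itga6 (429 ± 53.3) and Itgb1 (362 ± 39.1) came next, and neighbours among these overlapped. Itgae (183 ± 18.7), Itgb3 (112 ± 28.7) and Itga5 (18.1 ± 2.04) closed the order without overlap. In Ctrl libraries the levels per kb of Itgb2 (1164 ± 101) and Itgb7 (1153 ± 119) overlapped at the top. Itgal (876 ± 69.7) stood clear of Itgb1 (627 ± 31.0) and Itga4 (612 ± 17.2), which overlapped each other, and Itga6 (358 ± 13.3) lay below them. Itgae, Itgb3 and Itga5 were again last, at 191 ± 10.8, 106 ± 17.0 and 14.8 ± 4.92. The order depends on the length used: per kb of coding sequence, Itga4 ranked 2 in IL-2 and 1 in Ctrl libraries, against 4 and 5 by full transcript length.

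Integrin chains outside the 9 also differed, and most were measured at few reads. The αv and β8 chains form αvβ8, which releases active TGF-β from its latent complex on Tregs. Itgb8 had 243, 201, 265 and 151 normalised reads in IL-2 libraries, against 607, 514, 624 and 584 in Ctrl libraries. It was 2.71-fold lower with IL-2 (limma difference -0.61 ± 0.06 SE on the deposited scale, adjusted p = 2.65e-05), with no overlap. Itgav averaged 959 ± 59.8 with IL-2 and 1162 ± 28.6 in Ctrl, 1.21-fold lower (limma adjusted p = 0.0167), also without overlap. These were the only chains of the 18 that entered the main fit, and both were called lower, beside 14.6% of all tested genes. With only 2 tested, this does not describe the other chains as a set. Which β chain αv pairs with cannot be read from transcripts.

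Of the 18 other chains, 11 entered the fit on log2 normalised reads, where 2 were called higher and 3 lower, beside 10.9% and 9.07% of all genes in that fit. Itga9, a further partner of β1, averaged 4.45 ± 5.25 normalised reads with IL-2 and 38.7 ± 14.8 in Ctrl (limma difference -2.27 ± 0.46 SE on log2 reads plus 5, adjusted p = 0.00448). It exceeded 10 reads in 1 IL-2 library and in all 4 Ctrl libraries, so the filter admitted it through the Ctrl group. Itgb5, a partner of αv, averaged 58.2 ± 18.8 with IL-2 and 15.3 ± 12.4 in Ctrl (adjusted p = 0.0276). Itga1, the α1 chain of a collagen receptor, averaged 20.4 ± 3.13 with IL-2 and 4.98 ± 4.74 in Ctrl (adjusted p = 0.0333), and it reached 10 reads in all 4 IL-2 libraries and 1 Ctrl library, so the filter admitted it through the IL-2 group. Both calls were lost on log2 reads plus 1 (adjusted p = 0.0696 for Itgb5 and 0.0524 for Itga1). They were also lost without single libraries: for Itgb5 without IL-2 library 42, 43 or 44 or Ctrl library 45 (adjusted p up to 0.0711), and for Itga1 without any library but Ctrl library 47 (up to 0.0853). Itga2, the α2 chain, averaged 106 ± 31.5 with IL-2 and 161 ± 17.6 in Ctrl (adjusted p = 0.0753), and leaving out IL-2 library 44 brought it past the threshold (0.0322). Itga8, Itgb2l and Itgb6 were at 0 in all libraries.

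**Figure D3:**
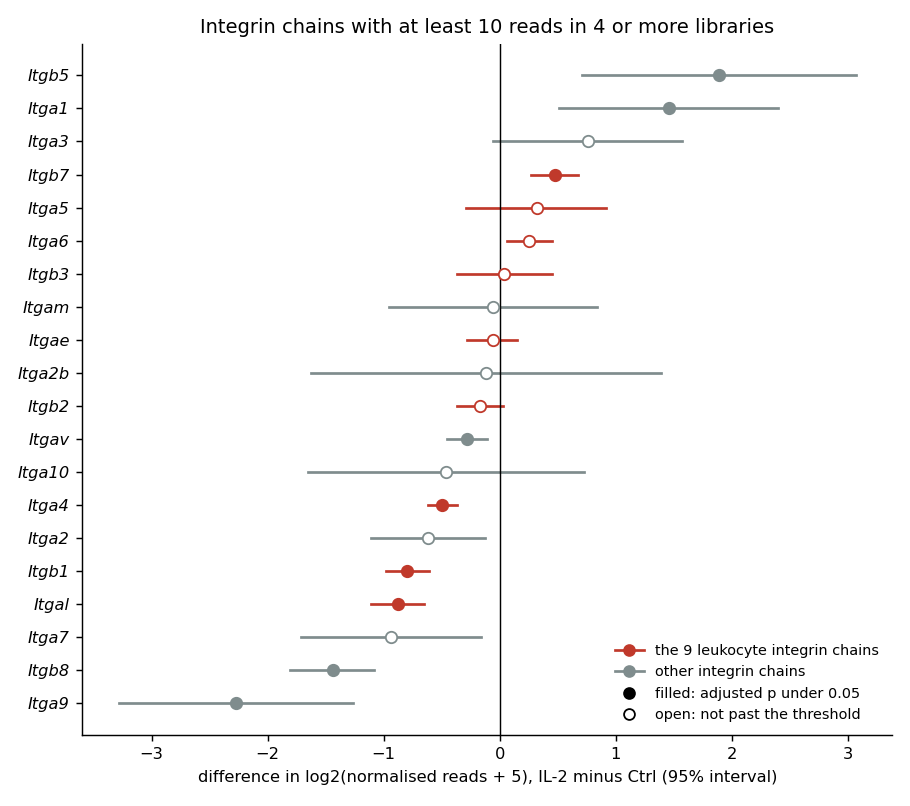
Difference in log2(normalised reads + 5), IL-2 minus Ctrl, with its unadjusted 95% interval (x axis) for the 20 integrin chains with at least 10 normalised reads in at least 4 libraries, 9 members in red and 11 others in grey. Itgb7 lies to the right of 0 at 0.48, and Itga4 at -0.50, Itgb1 at -0.80 and Itgal at -0.88 lie to the left, as do Itgb8 at -1.44 and Itga9 at -2.27.

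T cell integrins are switched to high affinity from inside the cell, when the GTPase Rap1 brings talin and kindlin-3 to the β tail. Of 25 genes of this process, 19 were tested, of which 4 rose and 5 fell in the main fit (limma), beside 16.8% and 14.6% of all tested genes. Their median difference was -0.01, as over all genes. Rap1gap2, which encodes a GTPase-activating protein that switches Rap1 off, rose 3.88-fold, to 426 ± 86.4 normalised reads against 110 ± 33.2 in Ctrl (adjusted p = 3.99e-05). It passed the filter on low values only through the IL-2 libraries. Rasgrp2, whose product CalDAG-GEFI loads Rap1 with GTP, rose 1.60-fold, to 719 ± 174 against 450 ± 65.7 in Ctrl (adjusted p = 0.00915). Fermt3, the gene of kindlin-3, rose 1.29-fold, to 1876 ± 181 against 1457 ± 68.9 (adjusted p = 0.00567).

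The adaptor gene Fyb, whose product ADAP links the T cell receptor to integrin activation, fell to 4588 ± 204 against 6631 ± 276 in Ctrl (limma adjusted p = 4.32e-05). Rapgef1 fell 1.39-fold and Stk4 1.21-fold, where Rapgef1 encodes a Rap1 exchange factor and Stk4 the kinase MST1. Rassf5, whose product RAPL joins Rap1 to αL, fell 1.26-fold (adjusted p = 0.0125). Tln1, the talin gene, stood at 8020 ± 559 with IL-2 and 7394 ± 526 in Ctrl (adjusted p = 0.239), and its difference of 0.11 turned to -0.06 under quantile normalization. Rap1b, Apbb1ip and Sipa1 did not pass either (adjusted p = 0.487, 0.133 and 0.587).

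Behind a bound integrin, actin crosslinkers and adaptors build the adhesion complex. Of 30 such genes, 21 were tested, and 5 rose and 5 fell, beside 16.8% and 14.6% of all tested genes, with a median difference of -0.03. Actn1, an α-actinin that ties β tails to actin, fell 2.56-fold to 425 ± 112 against 1088 ± 75.3 in Ctrl (limma adjusted p = 3.37e-05). Zyx, which encodes zyxin, rose 1.89-fold to 859 ± 48.8 against 456 ± 102 (adjusted p = 2.84e-04). Tns1, a tensin gene, rose 1.87-fold and Dock2, a Rac exchange factor of migrating lymphocytes, fell 1.23-fold. Ptk2b, the gene of the adhesion kinase Pyk2, stood at 1604 ± 171 with IL-2 and 1713 ± 139 in Ctrl (adjusted p = 0.472). Ptk2, the gene of the related kinase FAK, was below the filter of the main fit. On log2 normalised reads it was higher with IL-2, at 83.6 ± 14.1 against 22.4 ± 7.54 in Ctrl (limma adjusted p = 0.00172). The vinculin gene Vcl was tested only on log2 normalised reads, where it was higher with IL-2, at 104 ± 39.8 against 42.5 ± 17.1 (adjusted p = 0.0256), and did not pass without IL-2 library 42 or 44 or Ctrl library 45 or 46 (up to 0.0763).

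Most ligand genes for these integrins were little expressed: 3 of 25 entered the main fit, and 7 were at 0 in all libraries. Icam1, the LFA-1 ligand, fell 2.24-fold to 263 ± 38.2 against 589 ± 60.9 in Ctrl (limma adjusted p = 4.61e-05). Lama5, the laminin α5 chain bound by α6β1, had 469, 504, 873 and 617 normalised reads in IL-2 libraries, against 39.1, 12.8, 8.35 and 36.9 in Ctrl libraries. Every IL-2 library was far above every Ctrl library, 25.4-fold on average (adjusted p = 1.53e-06), and Lama5 passed the filter only through the IL-2 libraries. Lamc1, a laminin γ chain, rose 1.34-fold, to 1647 ± 92.1 against 1227 ± 148 (adjusted p = 0.00376). Lamb1 and Lamb2, β chains a laminin trimer also needs, did not exceed 7.27 normalised reads in any library. Icam2, another LFA-1 ligand, stood at 85.6 ± 35.7 with IL-2 and 81.7 ± 18.8 in Ctrl, below the filter of the main fit.

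Of 14 tetraspanin and partner genes of the membrane, 9 were tested, and 1 rose and 2 fell, with a median difference of 0.08. The 3 called of 9 lie near the 31.4% called among all tested genes. Cd47, the integrin-associated protein, rose 1.40-fold to 2416 ± 271 against 1727 ± 87.8 in Ctrl (limma adjusted p = 0.00122). Cd226, which associates with LFA-1, fell 1.79-fold to 244 ± 78.0 against 435 ± 76.2 (adjusted p = 0.00791). The tetraspanin gene Cd82 fell 1.23-fold (adjusted p = 0.0202), and did not pass without IL-2 library 41 (0.0512) or Ctrl library 48 (0.0613).

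**Figure D4:**
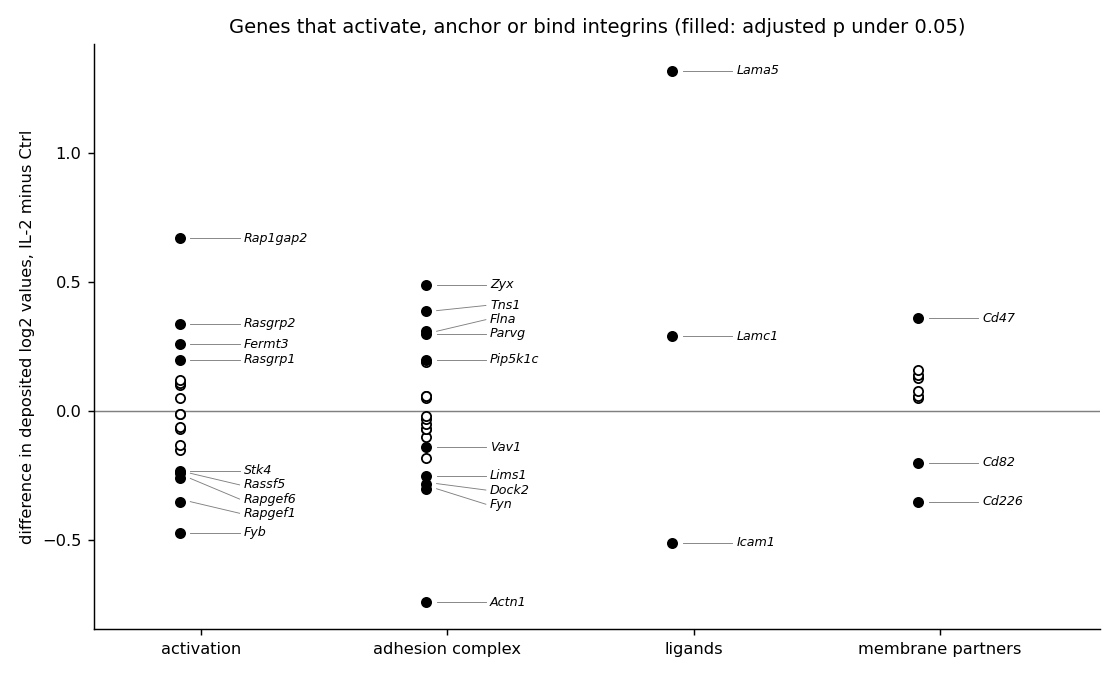
Difference in the deposited log2 values, IL-2 minus Ctrl (y axis), for the tested genes of 4 lists (x axis): integrin activation (19 genes), adhesion complex (21), ligands (3) and membrane partners (9). Filled points are genes with a limma adjusted p under 0.05 and are named, and they lie on both sides of 0 in each list, from Actn1 at -0.74 to Lama5 at 1.32.

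The genes most like each member were found by Pearson r of the deposited values over all 8 libraries, among 5214 named genes. The libraries share their group difference and their normalisation, which raises r, and no test was made. For Itgal these were Aftph (r = 0.996) and Ldlrad4 (0.990), for Itga4 Cdk17 (0.993) and Slc28a2b (0.992), and for Itgb1 Ptp4a2 (0.992) and Fam118a (0.991). Slc28a2b (61.3 ± 24.1 normalised reads with IL-2, 576 ± 84.9 in Ctrl) and Fam118a (147 ± 29.9 and 287 ± 17.6) passed the filter on low values only through the Ctrl libraries. A gene admitted that way is lower with IL-2, as Itga4 and Itgb1 were. Ap2m1 (0.980), a subunit of the clathrin adaptor, and Akr1b1 (0.979) followed Itgb7, and Anp32e (0.990) and Erp29 (0.944) followed Itga6. Irag2 (0.953) and Hira (0.912) were likest to Itgb3, and Meaf6 (0.936) and Lig3 (0.933) to Itgae.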

How the data were processed

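RNA from Tregs sorted from mouse spleen was made into stranded total RNA libraries, per the labels' protocols. The authors deposited 1 table of variance-stabilised expression values on a log2 scale, 1 column per library, matched to samples by library number. The submitters' processing notes name Salmon, DESeq2 and build GRCm39 but no settings. Annotation, filters and use of strand: not given in the sources used here.

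Normalised reads were recovered by inverting the parametric variance-stabilising formula, with the lowest value, 8.69, taken as 0 reads. Of the 40 commonest low values, 34 were whole multiples of 1 read within 0.001. The size of 1 read was itself taken from the commonest low values of each library. Where that value was among the 40, it matched by construction. No count test was run. A value 1 above the lowest corresponds to 206 normalised reads, and differences on the deposited scale understate fold changes of genes with few reads. Folds are ratios of group means of normalised reads.

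Genes with at least 4 of 8 libraries at least 1 above the lowest value (5261) were fitted with limma 3.58.1 in R 4.3.3 (lmFit, eBayes with trend, no covariates), IL-2 minus Ctrl, with Benjamini-Hochberg adjustment over all of them. A second fit used log2(normalised reads + 5) for the 10777 genes that reached 10 normalised reads in 4 or more libraries. A two-sided exact permutation test over 70 splits was used for Itga5. Both fits were also run on simulated data with planted differences. Recovery of calls was required there only in the main fit, for planted differences larger than that of any member. The rates of recovery and of false calls are not given here. Other software was Python 3.11.15, numpy 2.4.6, pandas 2.3.3, scipy 1.17.1 and matplotlib 3.10.9. Lengths came from GENCODE M21 (build GRCm38, longest coding transcript of each symbol). Promoter stretches were taken from RefSeq (GRCm38.p6) by symbol, and no value was read by position.

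Members, gene lists and the tests were chosen with earlier results of these data known. Named genes were all 9 members, other chains in the main fit, up to 4 called genes with the smallest adjusted p in each pathway list, 12 list genes with a direct role in integrin activation, and the 2 genes most like each member in the main fit, of which those for Itgb2 are not reported here. Itga1, Itga2, Itga9, Itgb5 and other chains with few reads, and Lamb1, Lamb2 and Ptk2, were named after their values were seen. Alternatives were other filters, normalisations, variance models and scales, a Ddx3y covariate and leaving out each library. Levels per kb of coding sequence, and for the chains with few reads the fit with no filter and the fits without each library, were chosen after seeing the data.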

Additional observations from a re-analysis of the deposited data

Results flagged for a closer look

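In 86 sets of 4 libraries, each a group for 1 integrin chain or named gene, 8 had a library whose gap to the nearest other was large against the whole range. Chance flags about 1 in 20 such sets. All values are normalised reads. Among the members, Itgb2 stood at 3649 in IL-2 library 42, with the other IL-2 libraries at 2871 to 2915, and its test passed without that library (limma adjusted p = 0.0346). Itga4 stood at 6224 in Ctrl library 45, with the other Ctrl libraries at 5873 to 5915. Itgb1 stood at 2218 in Ctrl library 48, with the others at 2435 to 2465. The calls of Itga4 and Itgb1 held without these libraries. Itga9 in the IL-2 group is not among the 8, though library 41 stood at 12.3 and libraries 42 to 44 at 1.62, 2.05 and 1.80. The flags therefore do not cover every chain with few reads.

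Fyb stood at 4285 in IL-2 library 43 (others 4658 to 4720) and at 7045 in Ctrl library 48 (others 6473 to 6505). IL-2 library 44 held 3 of the flagged values: Zyx at 787 (others 873 to 889), Cd47 at 2819 (others 2251 to 2334) and Rasgrp2 at 978 (others 597 to 659).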

How the results depend on the processing

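Itgal, Itga4, Itgb1 and Itgb7 kept their direction and call under all 18 alternatives, with the highest adjusted p at 3.19e-04, 4.12e-04, 1.87e-04 and 0.00758. Itgae and Itgb3 passed under none of the 17 that gave them a value. The members called lower numbered 3 under every alternative but 1, and 4 without IL-2 library 42, where Itgb2 passed. The 2 called higher became 1 with no filter, quantile normalization, median centring, limma without trend and log2 normalised reads plus 5 or plus 1, and 1 or 2 when 1 library was left out, since Itga6 was lost; the cause was not tested. Among the other chains, 2 were called higher with no filter and on log2 reads plus 5, and 0 in the main fit and on log2 reads plus 1. The stricter filter tests fewer genes and left 1 other chain lower, with 2 activation genes and 2 adhesion complex genes higher. Of the ligands it left 1 higher and 0 lower, and of the membrane partners 2 higher and 1 lower. In all, 380 genes were higher and 357 lower under it (883 and 767 in the main fit). Itgb8, Lama5 and Icam1 were not tested under it, so a smaller count need not be a lost call. The numbers tested under it are not given here, so no share stands beside these counts. Ligands called lower numbered 2 with no filter and on log2 reads plus 5 or plus 1. Leaving out 1 library gave 1 to 2 membrane partners higher and 1 to 2 lower. Except for log2 reads plus 5, the share of all genes called under each alternative is not given here. The counts under those alternatives therefore stand without a background. The rise of the log2 ratio of Itgb7 to Itgb1 was 1.28, and 0.97 from the deposited values, whose scale is compressed. No named gene past the threshold changed sign under these alternatives. Differences that were not past it did: Tln1 was -0.06 under quantile normalization, and with 1 library left out the differences ran from -0.03 to 0.13 for Itgb3, from -0.64 to 0.35 for Itga2b, from -0.39 to 0.16 for Itgam, and from -0.22 to 0.21 for Icam2, the last 3 on log2 reads plus 5. No paired analysis was possible because the groups share no replicate numbers. Depth limits the chains with few reads: the 95% interval for Itga5 ran from -0.29 to 0.92.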
